A study of Mus musculus with 15 samples.

Results

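Tmem119, Cx3cr1, Siglech, Selplg, Olfml3, Sparc and Fcrls are genes that resting microglia express at high levels and whose products sit on the cell surface or are secreted. These 7 genes were named in a written list, drawn up when earlier results of these data were known, and no threshold on their values was applied. They are 7 of 32372 genes in the deposited matrix, and all of them were among the 14260 genes that passed the filter on low counts. Their UMIs (unique molecular identifiers, each standing for 1 captured RNA molecule) were summed per mouse and also read cell by cell.

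The cells came from the cortex and hippocampus of male C57BL/6J mice aged 3.5 months that carry the hTfR KI allele, a knock-in that puts part of the human transferrin receptor into the mouse receptor. All 15 mice received 1 dose of 10 mg/kg. ATV:4D9 is an antibody against mouse TREM2, a receptor of microglia, with an Fc part that binds the human transferrin receptor and so carries it across the blood-brain barrier. ATV:RSV is the control antibody with the same transport part. There were 3 mice in each of 5 groups: ATV:RSV sampled at day 1, and ATV:4D9 sampled at days 1, 7, 14 and 28. Each of 3 processing batches held 1 mouse of every group. The labels give no ATV:RSV mice for the later days, so every day was compared with the same 3 control mice and the time between day 1 and those days cannot be told apart from treatment. An additional control animal named in the labels was not analysed here. Cells were enriched with CD45 beads before capture, and the knock-in allele was present in the controls as well.

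Microglia at rest keep contact with neurons and scan the tissue, and several of the 7 products take part in that contact. CX3CR1 is the receptor for fractalkine, which neurons display and shed. TMEM119 is a membrane protein used to tell microglia from other macrophages. Siglec-H is a Siglec-family lectin that pairs with the adaptor DAP12, the adaptor that TREM2 also uses, and it marks plasmacytoid dendritic cells outside the brain. SELPLG, or PSGL-1, is the ligand of P-selectin. FCRLS is a rodent Fc receptor-like scavenger receptor. OLFML3 and SPARC are secreted, the first an olfactomedin-domain protein and the second a collagen-binding matricellular protein. Genes of this kind are commonly lower in activated microglia, and the question put to the data was which of the 7 fell at day 1 and which held.

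In the GENCODE M21 annotation of mm10 all 7 are protein coding. Tmem119 (chr5:113793729-113800516, minus strand) and Selplg (chr5:113818536-113832644, minus strand) lie 18019 bases apart on the same strand with 1 processed pseudogene, Gm19931, between them. Olfml3 (chr3:103722222-103738001, minus strand) and Fcrls (chr3:87250758-87263738, minus strand) are also on 1 chromosome, farther apart. Siglech is at chr7:55768178-55778925 on the plus strand and Sparc at chr11:55394500-55423183 on the minus strand. Cx3cr1 (chr9:119901616-120069879, minus strand) has a long gene model that overlaps 9 other annotated genes, the most abundant of which, Csrnp1, held 35304 UMIs in all against 2118424 for Cx3cr1. The other 6 overlap no annotated gene.

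Promoter sequences of RefSeq (GRCm38.p6) were available for 5 of the 7 genes. Those of Siglech, which fell most at day 1, of Olfml3, which rose, and of Fcrls, which was still lower at later days, are shown from 250 bases before the start site to 10 bases after it, at chr7:55767934-55768193 (plus strand), chr3:103737992-103738251 (minus strand) and chr3:87263515-87263774 (minus strand). Capitals mark matches to the 5 motifs searched on both strands: GAGGAA, a purine-rich core of the kind bound by PU.1; CACGTG, an E-box; CCGCCC, a GC box; GAAA repeated after any pair of bases, of the interferon response type; and TGANTCA, of the AP-1 type.

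Siglech: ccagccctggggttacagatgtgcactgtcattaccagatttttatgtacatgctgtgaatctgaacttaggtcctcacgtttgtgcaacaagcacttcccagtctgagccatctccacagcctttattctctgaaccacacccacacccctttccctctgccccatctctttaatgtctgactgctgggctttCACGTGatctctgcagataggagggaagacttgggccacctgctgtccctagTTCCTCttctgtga

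Olfml3: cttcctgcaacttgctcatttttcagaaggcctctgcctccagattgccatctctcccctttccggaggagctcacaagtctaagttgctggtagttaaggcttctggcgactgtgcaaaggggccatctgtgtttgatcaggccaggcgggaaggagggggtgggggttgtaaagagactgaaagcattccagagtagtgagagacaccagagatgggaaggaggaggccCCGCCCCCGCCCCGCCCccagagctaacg

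Fcrls: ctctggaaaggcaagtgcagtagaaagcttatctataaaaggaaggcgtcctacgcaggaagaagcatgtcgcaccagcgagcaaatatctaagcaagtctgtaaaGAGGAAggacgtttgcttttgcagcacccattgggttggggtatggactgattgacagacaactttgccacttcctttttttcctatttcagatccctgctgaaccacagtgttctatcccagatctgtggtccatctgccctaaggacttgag

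Positions of first bases are counted from the start site at 0. The Siglech promoter held CACGTG at -56 and GAGGAA on the opposite strand at -4. Olfml3 held 3 copies of CCGCCC at -19, -13 and -8, the last 2 of which overlap by 1 base. Fcrls held GAGGAA at -144. Of 32851 promoters of the same length, 24.1% held GAGGAA, 6.34% CACGTG, 33.4% CCGCCC, 3.07% the repeated GAAA and 7.03% TGANTCA. No match to the last 2 motifs was present in the 5 promoters, and Cx3cr1 and Sparc held none of the 5 motifs in this window. The matches are a description of the letters and show no binding.

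The data comprised 102043 cells and 707518630 UMIs, with 5667 to 7596 cells and 32341960 to 70307384 UMIs per mouse. Each gene was deeply sampled, from 691640 UMIs for Siglech to 2118424 for Cx3cr1, and no mouse had fewer than 26565 UMIs of any of them. Cells of the treated day 1 mice were deeper than those of the controls, with a median of 8202 to 8996 UMIs per cell per mouse against 4975 to 5750, and 19.6% to 27.4% of them had a UMI of the proliferation genes Mki67 or Top2a against 0.397% to 0.684%. The median share of mitochondrial UMIs per cell was 3.11% to 3.38% in the control mice, 3.96% to 4.50% in the treated day 1 mice and 3.49% to 4.04% in those of day 7. The part of the mitochondrial share in the results was not tested, and values at equal depth and without the proliferating cells are given with the results. As a check of the labelled cell type, the microglia markers P2ry12 and Csf1r averaged 2171 and 2418 CPM (counts scaled to one fixed total of UMIs in every mouse) in the controls and 741 and 1474 CPM at day 1. With them Gpr34 and Sall1 were called lower at day 1, and Aif1 was called higher. Cells of different libraries shared 1283 barcodes, which covers 2.53% of cells, and any 2 libraries shared 5 to 27.

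At day 1 after ATV:4D9, 6 of the 7 genes were lower and 1 was higher than in the ATV:RSV mice. This refers to counts after TMM scaling, which is described below. Siglech fell most, to about 0.511 of the control level, followed by Selplg (0.641) and Cx3cr1 (0.675). Sparc (0.790), Tmem119 (0.814) and Fcrls (0.862) fell less, a direction that turned when counts were scaled by the number of cells. Olfml3 rose 1.30-fold, a call that was lost with library size scaling alone. With UMIs summed per mouse and tested by limma-voom at an adjusted p under 0.05, all 7 were called, but so were 69.2% of the 14260 genes tested (34.6% lower and 34.7% higher), so the count of calls says little about these genes in particular. The median log2 fold change of the 7 was -0.34 against -0.05 over all genes.

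Levels of the 7 genes are given as CPM of a mouse after TMM scaling, a factor that corrects for a few abundant genes taking up a library. They serve to compare 1 gene between mice, not different genes, since 3′ counts are not per length. Among the receptors, Siglech was at 1156, 1203 and 1140 CPM in the control mice of batches 1, 2 and 3 and at 614, 606 and 568 CPM in the treated day 1 mice of the same batches. Both groups were tight and did not overlap. The log2 fold change was -0.97 (SE 0.045, adjusted p = 3.1e-11), and within the batches it was -0.91, -0.99 and -1.0. Among all genes tested, 8.54% had a lower fold change at day 1.

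Cx3cr1 stood at 3357, 3506 and 3097 CPM in the control mice and at 2336, 2305 and 2082 CPM at day 1. Every treated mouse was below every control. The difference was -0.57 on the log2 scale (SE 0.062, adjusted p = 6.3e-07), and 22% of all genes had a lower fold change.

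Selplg, measured at 2081, 1823 and 2026 CPM in the controls, was at 1308, 1134 and 1368 CPM at day 1. The mouse of batch 2 was lowest in both groups. Its log2 fold change of -0.64 (SE 0.074, adjusted p = 1.2e-06) was close to that of Cx3cr1, and 18.5% of genes had a lower one. Selplg and its neighbour Tmem119 did not fall alike: the ratio of Tmem119 to Selplg UMIs was 0.578 ± 0.031 (SD, n = 3) in the controls and 0.733 ± 0.018 at day 1, and the mice of the 2 groups did not overlap.

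Tmem119 had 1205, 1111 and 1108 CPM in the controls and 979, 837 and 975 CPM at day 1. The groups were separate, with the batch 2 mouse of day 1 well below the other two. Its log2 fold change was -0.30 (SE 0.072, adjusted p = 0.00164), in the middle range of all genes, 35.9% of which had a lower one.

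Fcrls showed the smallest day 1 difference of the 7, -0.21 on the log2 scale (SE 0.065, adjusted p = 0.00839). Control mice had 1816, 1716 and 1782 CPM and treated mice 1573, 1445 and 1567 CPM. These values did not overlap, and 40.4% of all genes had a lower fold change.

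The secreted pair moved in opposite directions. Sparc was at 2669, 2625 and 2452 CPM in the controls and at 2092, 1997 and 2027 CPM at day 1, a log2 fold change of -0.34 (SE 0.045, adjusted p = 5.8e-06). Olfml3 was at 1116, 994 and 1200 CPM in the controls and at 1413, 1341 and 1563 CPM at day 1, a log2 fold change of 0.38 (SE 0.084, adjusted p = 0.000733). Within the batches Olfml3 was higher by 0.34, 0.43 and 0.38, so each treated mouse exceeded the control of its batch as well as every other control. With library size alone in place of TMM, which put the median of all genes at -0.29, the Olfml3 rise was 0.14 with an adjusted p of 0.12 and was not called.

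All 6 genes that fell were lower than the control of the same batch in 3 of 3 batches. The CPM of the 3 treated mice lay below all 3 controls for these 6 genes, as for 35.9% of all genes, and above them for Olfml3, as for 35.7%. The plot of levels per mouse shows the day 1 mice apart from all other mice for 5 genes (Tmem119 and Fcrls excepted) and Fcrls low in the treated groups. The share of all genes with the day 1 mice apart from all other mice was not counted, so that number says little about these genes in particular.

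**Figure D1:**
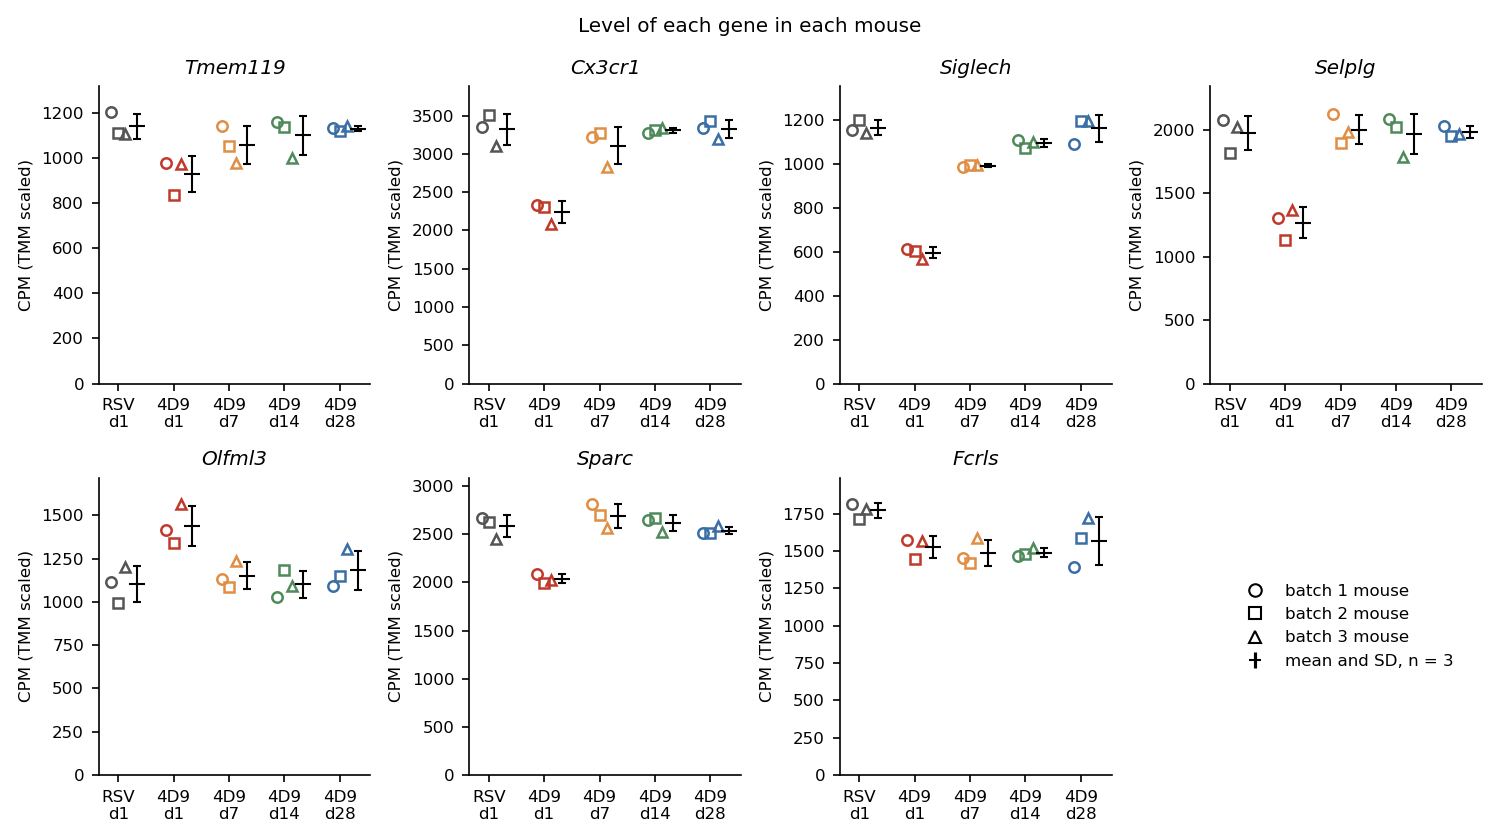
Level of each of the 7 genes in each mouse, as CPM after TMM scaling on axes that start at 0, for ATV:RSV day 1 (RSV d1) and ATV:4D9 days 1, 7, 14 and 28 (4D9 d1 to d28); symbols give the batch and the bar the mean and SD of 3 mice. Siglech drops from a mean of 1166 to 596 at day 1, Olfml3 rises from 1103 to 1439, and Fcrls stays at a mean of 1487 to 1567 after day 1 against 1771 in the controls.

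A CPM after TMM scaling is relative to the library and is no count per cell. The cells of day 1 held more UMIs in total, so the same counts were also divided by the number of cells. On that scale the 7 genes fell into 3 kinds. Siglech went from 7.59 ± 0.405 (SD, n = 3 mice) to 4.99 ± 0.534 UMIs per cell, Cx3cr1 from 21.6 ± 1.70 to 18.8 ± 2.36 and Selplg from 12.9 ± 1.70 to 10.6 ± 1.12. All day 1 mice were below every control for Siglech but not for Cx3cr1 or Selplg. Sparc (16.8 ± 1.54 and 17.1 ± 1.5) and Tmem119 (7.44 ± 0.844 and 7.78 ± 0.899) were nearly level per cell. Olfml3 went from 7.20 ± 0.983 to 12 ± 0.746 UMIs per cell, with every day 1 mouse above every control, and Fcrls from 11.5 ± 1.09 to 12.8 ± 1.12 with overlapping groups.

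The exact permutation test of the 5 groups within batches (two-sided, 14400 arrangements, smallest possible p 6.9e-05) gave p = 0.000486 for Siglech, 0.00618 for Fcrls, 0.0117 for Cx3cr1, 0.0147 for Olfml3, 0.0533 for Selplg, 0.0555 for Tmem119 and 0.642 for Sparc. These are unadjusted values among 14 exact tests of per-cell measures, and an exact permutation of 3 mice against 3 alone cannot go below p = 0.1. In limma-voom with counts scaled by the number of cells, which put the median of all genes at 0.32, the day 1 log2 fold change was -0.61 for Siglech, -0.28 for Selplg, -0.21 for Cx3cr1 and 0.74 for Olfml3, all called. With that scaling 8945 of the 14260 genes were called, 7037 higher and 1908 lower. Fcrls (0.15), Tmem119 (0.06) and Sparc (0.02) were then slightly above 0 and not called. Thus Siglech, Selplg and Cx3cr1 were lower under all 3 scalings, whereas the direction of Tmem119, Sparc and Fcrls turned with the scaling.

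**Figure D2:**
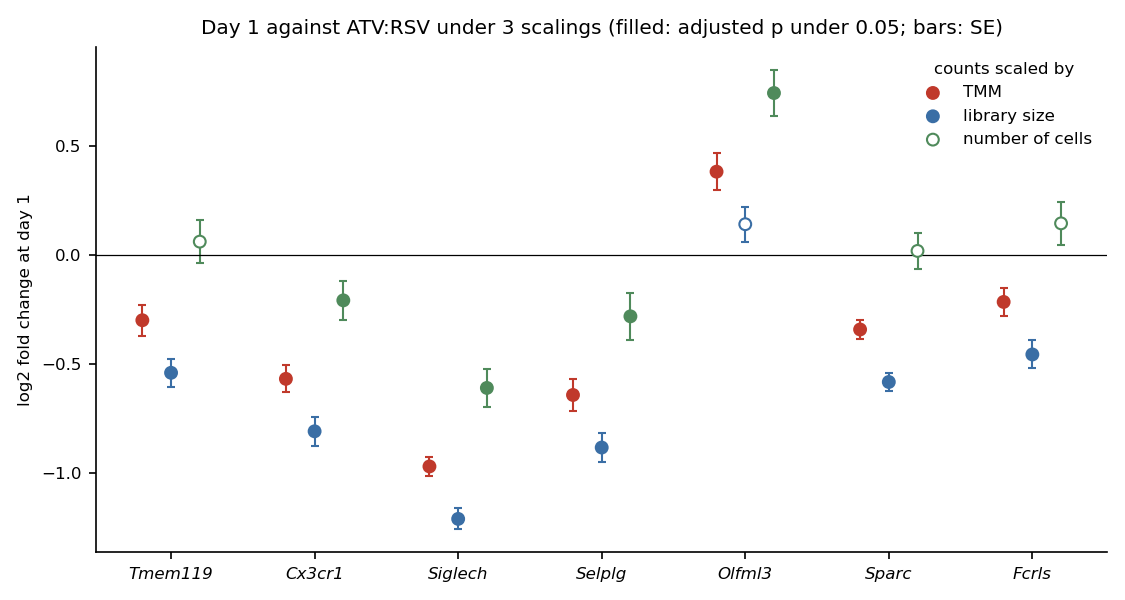
Day 1 log2 fold change against ATV:RSV (bars SE) of each gene with counts scaled by TMM, by library size or by the number of cells; filled points have an adjusted p under 0.05. Siglech is below 0 under each scaling (-1.21 to -0.61), and Tmem119, Sparc and Fcrls cross 0 when counts are scaled by the number of cells.

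Because any pair of genes in a library shares the same depth and scaling, ratios between members do not depend on that choice. Of the 21 pairs, 17 had ratios that did not overlap between the control and day 1 mice. The share among pairs of all genes was not counted. Of single genes, 35.9% lay below and 35.7% above all controls at day 1. The count of pairs therefore says little about these genes in particular. The widest was Siglech to Olfml3. Its UMI ratio was 1.07 ± 0.133 (SD, n = 3) in the controls, 0.417 ± 0.0468 at day 1, 0.865 ± 0.0562 at day 7, 0.999 ± 0.0881 at day 14 and 0.986 ± 0.0637 at day 28. At day 1 it ranged from 0.364 to 0.452 per mouse, against a lowest control value of 0.95. The ratio of Siglech to Fcrls was 0.659 in the controls, 0.391 at day 1, and 0.669, 0.736 and 0.745 at days 7, 14 and 28. Ratios that overlapped at day 1 were those of Tmem119 to Sparc, Tmem119 to Fcrls, Cx3cr1 to Selplg, and Sparc to Fcrls.

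Seen cell by cell, the lower Siglech level showed in the median cell as well as in the share of cells with a UMI. To compare cells of unequal depth, each was thinned at random to 3385 UMIs, which left out 10204 shallower cells (3.93% to 5.79% of cells per day 1 mouse and 8.69% to 17.8% per control mouse). After thinning, Siglech was detected in 97.0% ± 0.309 (SD, n = 3) of control cells and in 78.2% ± 2.12 of day 1 cells, with 79.0%, 79.7% and 75.8% in the 3 treated mice. Its median per cell was 4 UMIs in each control mouse and 2, 2 and 1 in the treated mice. Without thinning the shares were 98.8% and 94.4%.

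The other genes were still detected in at least 90% of thinned day 1 cells on average. Tmem119 went from 96.4% to 90.2%, Selplg from 99.3% to 94.0%, Fcrls from 98.1% to 96.0%, Cx3cr1 from 99.8% to 98.6% and Sparc from 99.8% to 98.5%, and for each of them all day 1 mice were below all controls. How many of all genes did so on this measure was not counted. On CPM 35.9% of all genes did. Thinned counts also carry no TMM scaling, and with library size alone the day 1 median of all genes was -0.29. Olfml3 was at 95.9% and 96.8%, with overlapping groups. The exact permutation test within batches over the 5 groups gave p = 0.00104 for Siglech, 0.00215 for Tmem119, 0.000347 for Fcrls, 0.00882 for Selplg, 0.0286 for Cx3cr1, 0.0388 for Sparc and 0.140 for Olfml3. A control mouse had all 7 genes detected together in 87.6% to 89.0% of its thinned cells, and a day 1 mouse in 63.4% to 66.6%. The later groups were at 81.6% to 83.7% (day 7), 84.8% to 86.1% (day 14) and 86.5% to 89.0% (day 28).

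**Figure D3:**
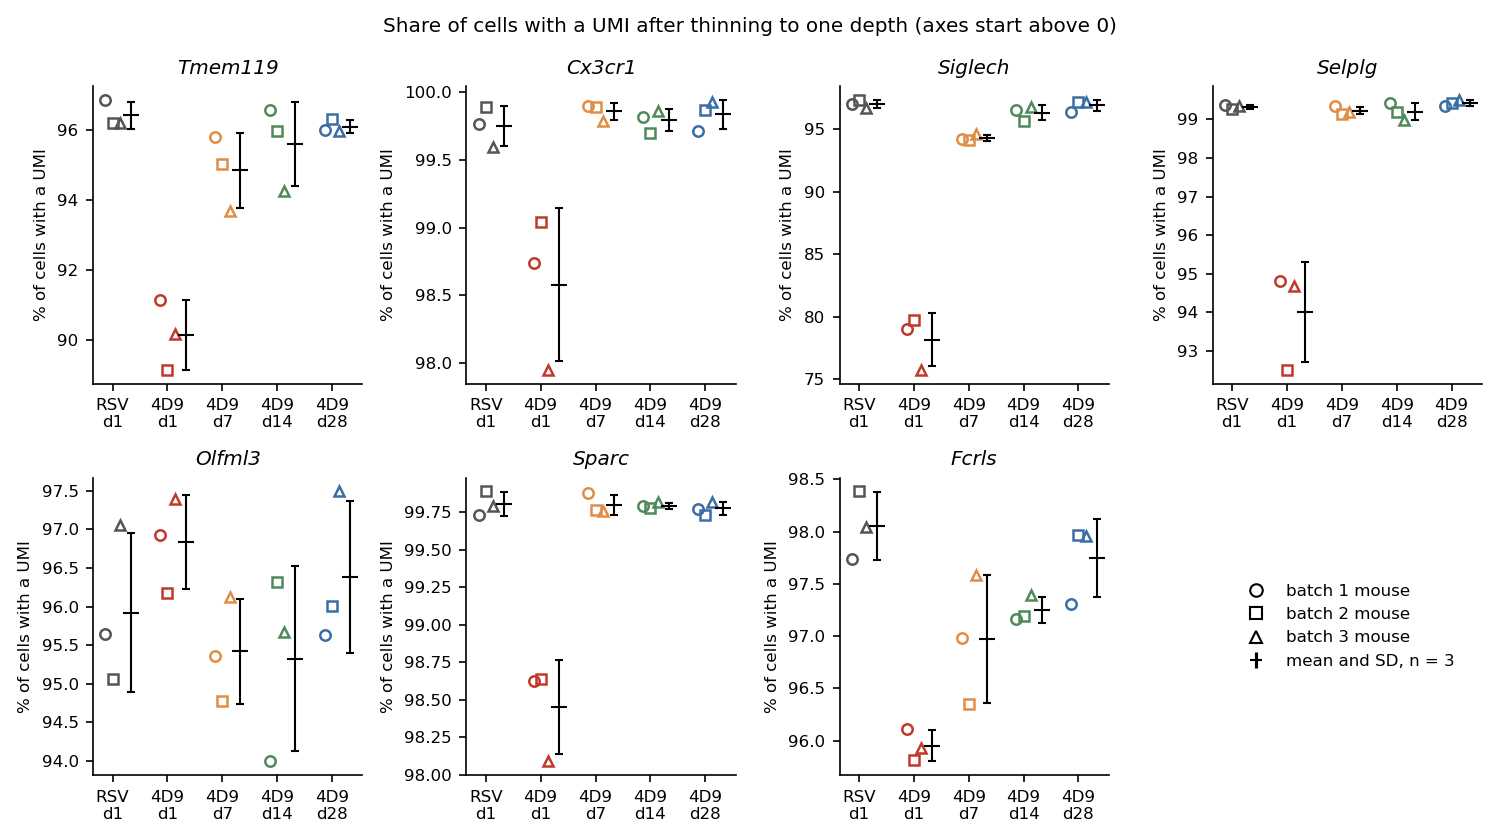
Percent of cells with at least 1 UMI of each gene after thinning to 3385 UMIs per cell, 1 symbol per mouse by batch, with the mean and SD of 3 mice; axes start above 0 and differ between panels. Siglech at day 1 (75.8% to 79.7%) is far below the controls, and Olfml3 shows overlapping groups.

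No background share from a cell type known to lack these genes was obtained. The 446 cells with UMIs of at least 3 border-associated macrophage markers had a median depth of 12487 UMIs against 6187 in the other cells, and since doublets were not called they were not used as a background. Markers of other cell types known for these genes were mostly at low summed levels, given here as CPM without TMM scaling, and their part in the results was not tested. The plasmacytoid dendritic cell list (4 of 6 genes tested, 2 called lower and 1 higher at day 1) was at 839 to 870 CPM in the controls and 625 to 641 CPM at day 1, nearly all of it Irf8 and Tcf4, which microglia also express. Of its other genes Klk1 (0 in every mouse), Ly6d and Ccr9 (at most 0.412 each) were at or near 0. Cox6a2 of the same list went the other way, from a mean of 5.20 CPM in the controls to 41.0 CPM at day 1. Beside Sparc, which measured 1997 CPM or more in each mouse, the fibroblast list (4 genes, none past the filter) was at most 0.404 CPM, the mural list (3 of 5 tested, none called) at most 3.88 CPM and the endothelial list (5 genes, 1 called lower and 2 higher) at 20.1 to 26.2 CPM in the controls and 12 to 16.2 CPM at day 1. Of the endothelial genes Pecam1 averaged 18.4 CPM in the controls and 6.45 CPM at day 1, while Cdh5 went from 0.819 to 3.39 CPM. The monocyte list (3 of 4 tested, 1 called each way) was at 4.39 to 11.2 CPM in the controls and 13.3 to 17.6 CPM at day 1, the border macrophage list (7 genes, 3 called higher) at 17.2 to 20.6 and 18.0 to 26.0 CPM, and the neutrophil list (3 of 4 tested, none called) at 9.01 CPM or less in both, although 1 day 7 mouse had 116 CPM.

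After TMM scaling, most of the day 1 pattern was gone by day 7. Compared with treated day 1 directly, 5 genes were higher at day 7 and Olfml3 was lower, by 0.74 (Siglech), 0.66 (Selplg), 0.47 (Cx3cr1), 0.40 (Sparc), 0.19 (Tmem119) and -0.32 (Olfml3) on the log2 scale, with adjusted p-values from 8.2e-10 for Siglech to 0.0312 for Tmem119. Between these days 66.9% of all genes were called, 33% higher and 33.9% lower. Fcrls was not called, with a log2 fold change of -0.04 and a 95% interval of -0.18 to 0.10. The call of Tmem119 was lost without the day 1 mouse of batch 2 (0.11, adjusted p = 0.200), the day 7 mouse of batch 1 (0.12, 0.167) or the day 7 mouse of batch 2 (0.19, 0.0638), and the call of Olfml3 was lost with library size scaling (-0.17, 0.0667). Per cell the comparison was a different one. With counts scaled by the number of cells Siglech was still higher at day 7 (0.27, adjusted p = 0.0106) and Olfml3 lower (-0.79, 1.9e-06), but Cx3cr1 (0.0047, 0.968), Selplg (0.20, 0.122) and Sparc (-0.063, 0.532) were not called, Tmem119 turned to lower (-0.28, 0.0196) and Fcrls was called lower (-0.50, 0.000187). Of all genes 1274 were then called higher and 7741 lower.

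Against the controls, 2 of the 7 genes were called at day 7, both lower, where 3.98% of all genes were called and 0.996% were called lower. Siglech was at 986, 996 and 997 CPM, below all controls, as were 10.2% of all genes (log2 fold change -0.23, SE 0.045, adjusted p = 0.00623). Scaled by the number of cells, neither Siglech (-0.34, adjusted p = 0.0507) nor Fcrls (-0.36, 0.0716) was called at day 7. Siglech was then at 1111, 1074 and 1102 CPM at day 14 and at 1093, 1197 and 1197 CPM at day 28. The day 14 mice were still all below the controls, by -0.09 on the log2 scale (95% interval -0.18 to 0.01, not called), and the day 28 mice overlapped them.

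Fcrls had another time course: after TMM scaling it was about as low at days 7 and 14 as at day 1. This depended on the scaling, and with library size alone Fcrls was higher at day 7 than at day 1 by 0.11 on the log2 scale (not called). It measured 1455, 1421 and 1586 CPM at day 7, 1464, 1482 and 1519 CPM at day 14, and 1395, 1589 and 1717 CPM at day 28. The mice of days 7 and 14 were all below the lowest control (1716 CPM), and the batch 3 mouse of day 28 reached it. The log2 fold changes were -0.25 at day 7 (SE 0.065, adjusted p = 0.0405), -0.25 at day 14 (SE 0.065, unadjusted p = 0.00155, adjusted p = 0.194) and -0.18 at day 28 (SE 0.065, unadjusted p = 0.0134, not called). In each of the 3 batches Fcrls was below its control at every day, although at day 28 the batches ran from -0.38 to -0.05. The day 7 call rested on each of several mice: it was lost without any 1 of the 3 controls, without the day 7 mouse of batch 1 or 2, and without the batch 2 mouse of day 14 or of day 28, with adjusted p-values from 0.0576 to 0.154 and log2 fold changes from -0.28 to -0.22. DESeq2 called the day 14 difference (adjusted p = 0.0352).

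In thinned cells a count is a share of the cell's RNA without TMM scaling. There the Fcrls mean was below the controls at every day and lowest at day 1. All UMIs per cell gave another course, with 12.8 at day 1, 9.04 at day 7, 9.71 at day 14 and 10.7 at day 28 against 11.5 in the controls. After thinning, cells held a mean of 6.42 ± 0.227 (SD, n = 3) Fcrls UMIs in the controls, 4.87 ± 0.261 at day 1, 5.04 ± 0.332 at day 7, 5.20 ± 0.160 at day 14 and 5.64 ± 0.532 at day 28. All treated mice of each day were below every control on this measure. At day 7 the same held for the thinned means of Siglech, Cx3cr1 and Tmem119, which were 3.29, 10.0 and 3.53 UMIs per cell against 4.21, 11.7 and 4.17 in the controls. How many of all genes did so was not counted. Thinned counts carry no TMM scaling, and with library size alone 74.0% of all genes were below 0 at day 7 (median -0.10). On CPM after TMM scaling only 1 day 7 mouse for Cx3cr1 and 2 for Tmem119 were below every control. The ratio of Sparc to Fcrls also shifted after day 1, while Sparc itself had 2 of 3 mice above every control at day 7 (mean 2695 CPM, not called). Sparc to Fcrls UMIs were 1.46 ± 0.0776 in the controls, 1.34 ± 0.0446 at day 1, 1.82 ± 0.174 at day 7, 1.76 ± 0.0841 at day 14 and 1.63 ± 0.154 at day 28.

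For the remaining 5 genes no difference from the controls was called after day 1. At day 7 the log2 fold changes were -0.11 for Tmem119 (95% interval -0.26 to 0.04), -0.10 for Cx3cr1 (-0.23 to 0.03), 0.02 for Selplg (-0.14 to 0.18), 0.06 for Olfml3 (-0.12 to 0.24) and 0.06 for Sparc (-0.03 to 0.16). At day 28 they lay between -0.02 (Sparc) and 0.10 (Olfml3), with intervals of -0.12 to 0.07 and -0.08 to 0.28. At day 14 none of the 7 genes was called, where 0.4% of all genes were, and 2 of them (Siglech and Fcrls) had all mice below all controls, as 5.16% of all genes had. At day 28 limma-voom called none of the 7 and none of the 14260 genes (0%, lowest adjusted p = 0.173). Without adjustment 571 genes had p under 0.05. DESeq2 called 14 genes on day 28 and edgeR 0.

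**Figure D4:**
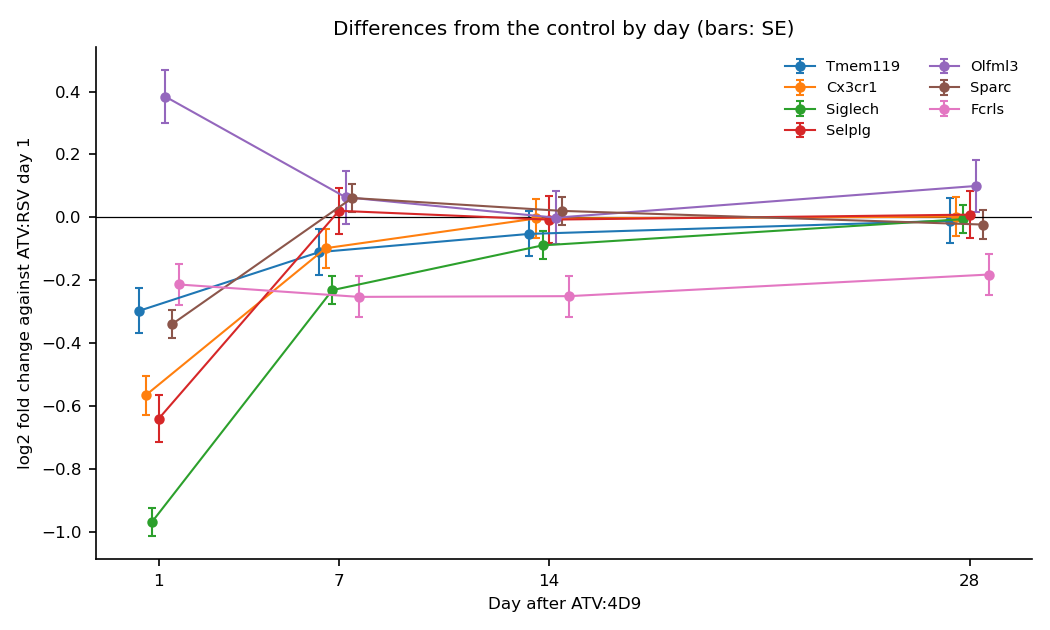
Log2 fold change (bars SE) of each gene against the 3 ATV:RSV day 1 mice at days 1, 7, 14 and 28 after ATV:4D9, from limma-voom. Siglech goes from -0.97 to -0.23, -0.09 and -0.01, Fcrls stays between -0.25 and -0.18, and Olfml3 alone starts above 0 at 0.38.

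Ordered by mean level, the groups ran RSV, day 28, day 14, day 7, day 1 for both Tmem119 and Siglech. For Siglech the CPM ranges of days 14 and 7 and of days 7 and 1 did not overlap, whereas all neighbours overlapped for Tmem119. Cx3cr1 ran day 28, RSV, day 14, day 7, day 1, with the last 3 separate from each other. For Selplg (day 7, day 28, RSV, day 14, day 1) and Sparc (day 7, day 14, RSV, day 28, day 1) only day 1 stood apart from its neighbour. Olfml3 had day 1 on top, apart from day 28, and then day 7, RSV and day 14 overlapping. For Fcrls (RSV, day 28, day 1, day 14, day 7) every neighbour overlapped. How many of all genes had neighbours apart in these ways was not counted. The F test over the 5 groups called all 7 genes, as it did 66.5% of all genes.

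The authors deposited 3 clusters, numbered 0, 1 and 2, which were formed from these same data, so values by cluster are a description. Which genes were used to form them is not given in the sources used here. Within every mouse all 7 genes were higher in cluster 1 than in cluster 0, except Sparc, and lower in cluster 2 than in cluster 0, except for Fcrls in 1 of 12 mice outside treated day 1. Most day 1 cells (5607 to 6597 per mouse) were in cluster 2, which held only 76 to 165 cells of each control. In the day 1 mice the log2 difference of cluster 2 from cluster 0 was -0.97 for Siglech, -0.80 for Selplg, -0.71 for Sparc, -0.56 for Tmem119, -0.49 for Cx3cr1, -0.48 for Fcrls and -0.28 for Olfml3. In the 12 mice of the other groups it was -0.57, -0.65, -0.36, -0.58, -0.43, -0.20 and -0.25 in the same order of genes.

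Siglech, Cx3cr1 and Olfml3 did not overlap between control and day 1 mice inside any of the 3 clusters. CPM was taken here over the UMIs of the cluster without TMM scaling. The share of all genes that separated within a cluster was not counted. In whole mice 35.9% lay below and 35.7% above all controls at day 1, on CPM after TMM scaling. With library size alone the day 1 median over whole mice was -0.29. Whether the lower values within clusters exceed such a shift was not tested. In cluster 2 Siglech was at 745 ± 29.9 CPM (SD, n = 3) in the controls and 504 ± 20.8 CPM at day 1, Cx3cr1 at 2405 ± 22.1 and 1956 ± 136 CPM, and Olfml3 at 927 ± 175 and 1267 ± 86.5 CPM. Sparc was also separate there, at 2124 ± 73.0 and 1774 ± 40.5 CPM, and the remaining 3 genes overlapped. In cluster 1, which held 180 to 555 cells of each day 1 mouse, Siglech was at 1472 ± 67.5 and 1288 ± 53.9 CPM, Cx3cr1 at 3920 ± 304 and 3373 ± 113 CPM and Olfml3 at 1331 ± 123 and 1856 ± 42.4 CPM, with the other 4 genes overlapping. In cluster 0, which held 211 to 383 cells of each day 1 mouse, Siglech was at 1146 ± 41.2 and 987 ± 13.4 CPM, Cx3cr1 at 3371 ± 231 and 2739 ± 210 CPM, and Olfml3 at 1101 ± 90 and 1539 ± 107 CPM. There Tmem119 (1130 and 1193 CPM), Selplg (1952 and 1905), Sparc (2808 and 2910) and Fcrls (1778 and 1867) overlapped between the groups. The day 1 cells of cluster 0 were shallower than the control cells, with a mean of 4715 to 6324 UMIs per mouse against 6929 to 7932. Per cell, Olfml3 there was at 8.17 ± 0.997 UMIs in the controls and 8.36 ± 0.923 at day 1. All other members had lower means per cell at day 1, such as Tmem119 (8.39 and 6.48) and Sparc (20.8 and 15.9). Fcrls within cluster 0 was at 1420 ± 91.2 CPM at day 7, 1458 ± 57.8 CPM at day 14 and 1558 ± 155 CPM at day 28, below every control mouse. Siglech (929 and 1050 CPM) and Tmem119 (989 and 1055 CPM) were also below every control there at days 7 and 14. How many of all genes did so was not counted.

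**Figure D5:**
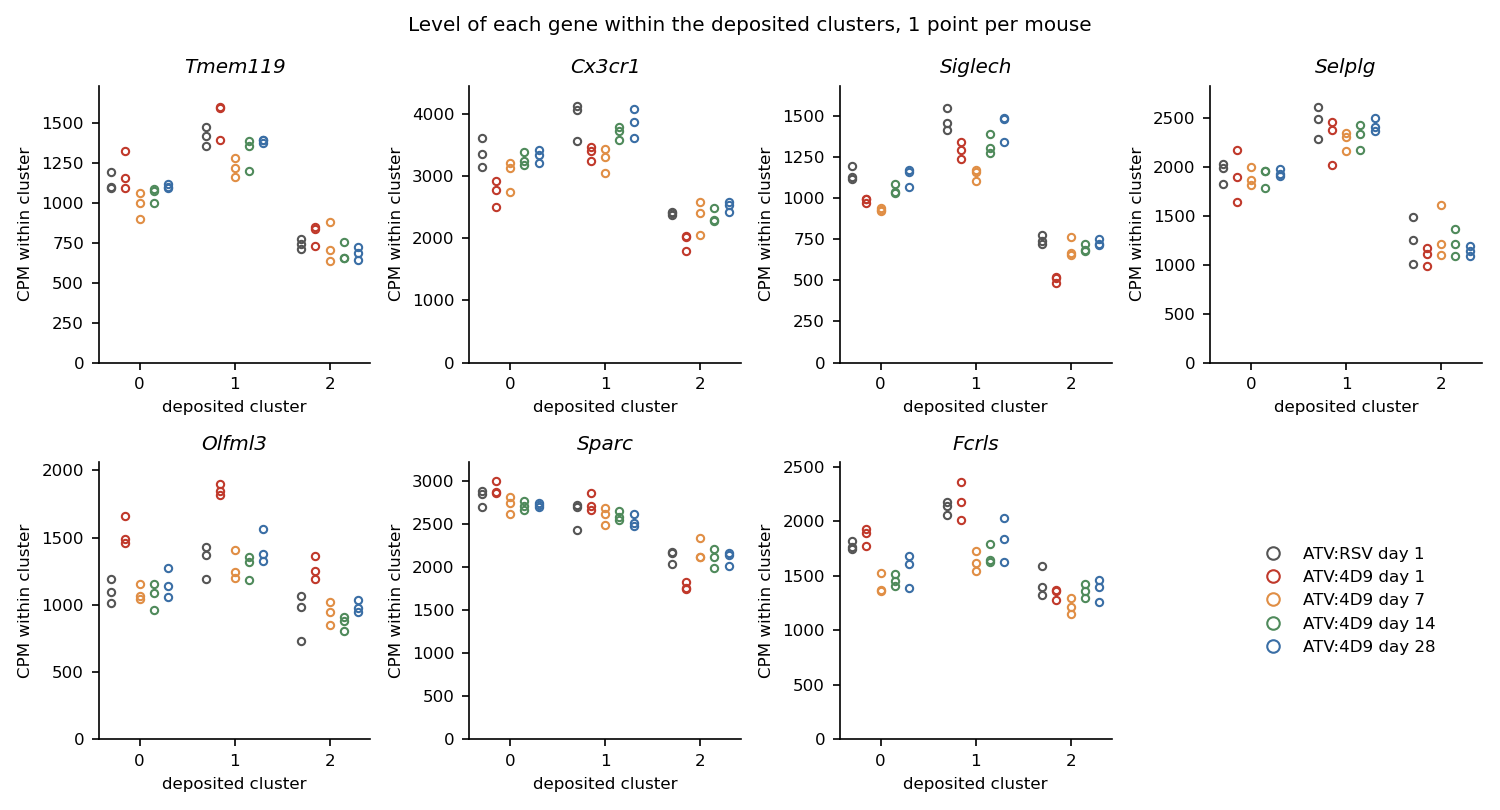
CPM of each gene within the deposited clusters 0, 1 and 2, without TMM scaling, 1 point per mouse, coloured by group. All 7 genes have their lowest means in cluster 2, and inside each cluster Siglech and Cx3cr1 are lower and Olfml3 higher in the day 1 mice than in the controls; Sparc is lower in cluster 2 alone, at 1774 against 2124 CPM.

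In the treated day 1 mice, the CPM of cells with a UMI of Mki67 or Top2a differed from that of the rest by -0.13 (Siglech), -0.09 (Cx3cr1), -0.08 (Tmem119), 0.02 (Olfml3), 0.03 (Selplg), 0.06 (Sparc) and 0.09 (Fcrls) on the log2 scale. These cells were chosen without thinning, which favours deep cells (a mean of 12223 UMIs against 9304 in the mouse of batch 1), so their UMIs per cell are not compared. Without those cells all 7 genes were still called at day 1.

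Among partners and relatives of the 7, taken from written lists, the shares called at day 1 were mostly near those of all genes (69.2% in all, 34.6% lower and 34.7% higher) and say little about a list. Of 6 genes of the CX3CR1 ligand, its sheddases and coupled proteins, 2 were called higher and 2 lower at day 1: the fractalkine gene Cx3cl1 (-0.96, adjusted p = 0.0242) was at 0.532 CPM in the controls, the sheddase Adam17 was higher (0.32, 1.2e-05), and the arrestin Arrb2 was lower (-0.25, 0.000897). Beside Cx3cl1, which neurons express, the neuron marker list (4 of 4 called lower) was at 8.35 to 10.3 CPM in the controls and 4.14 to 5.83 CPM at day 1, and the oligodendrocyte lineage list (4 of 5 tested, 4 lower) at 23.8 to 34.1 and 12.4 to 14.0 CPM, and their part in the Cx3cl1 value was not tested. Of 7 tested genes that modify PSGL-1, 2 were higher and 4 lower, among them the tyrosylprotein sulfotransferases Tpst1 (1.89, adjusted p = 3.8e-10, from 5.26 to 19.6 CPM) and Tpst2 (-0.54, 3.9e-05) and the fucosyltransferase Fut4 (-0.92, 0.000224). The selectin genes Selp and Sele did not pass the filter on low counts.

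In the Siglec family and its adaptors 2 of 8 genes rose and 4 fell at day 1. Siglec1, the sialoadhesin of interferon-exposed macrophages, rose from 0.230 to 3.04 CPM (3.79 on the log2 scale, adjusted p = 1.3e-08), whereas Siglecg (-1.45, 1.7e-07) and Cd33 (-0.94, 4.9e-10) fell. At day 7 Siglecf (0.48, adjusted p = 0.00996) and Cd22 (0.71, 0.00259) were higher than in the controls, when Siglech was still lower. Fcrl1, an Fc receptor-like gene best known from B cells, went from 30.8 to 4.86 CPM at day 1 and back to 30.9 CPM at day 7 (day 1 log2 fold change -2.67, adjusted p = 2.7e-11), beside a B cell marker list (2 of 4 tested, 1 called lower) at 29.1 to 36.1 CPM in the controls and 22.1 to 24.2 CPM at day 1. Cd5l, the other tested gene of the Fc receptor-like list, was not called, and 4 genes of that list were below the filter.

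Relatives and receptors of the secreted pair were mostly sparse. For the 2 lists that follow, the day 1 shares over all genes were 34.6% called lower and 34.7% called higher. Of 6 tested genes of the SPARC list, 2 were lower at day 1, Sparcl1 (-0.56, adjusted p = 0.0290) and the SPARC-clearing receptor Stab1 (-0.47, 5.4e-06), and none was higher. In the olfactomedin and TGF-beta list 1 of 5 was higher, Olfml2b (0.54, adjusted p = 0.00469), and 2 were lower, Tgfb1 and Tgfbr1 (both -0.30). At day 7 Olfm1 of this list was lower than in the controls (-0.75, adjusted p = 0.0309). Of 22 other homeostatic microglia genes, 20 were lower at day 1, where 34.6% of all genes were, with a median log2 fold change of -0.65 against -0.34 for the 7, and the largest falls were in Rnase4 (-1.51, adjusted p = 1.1e-13), Crybb1 (-1.32, 2.2e-10) and P2ry12 (-1.31, 3.8e-12). Lgmn was higher (0.29). At day 7 P2ry12, Slc2a5 and Golm1 were the 3 of these 22 called lower, where 0.996% of all genes were.

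Finally, the genes whose level tracked each member most closely over the 15 mice were listed by Pearson's r of log2 CPM, a description in which the 3 day 1 mice weigh most. They were Slc39a12, P2ry12 and Hpgds for Siglech (0.992 to 0.989), Ppp1r9a, Rhoq and Ksr1 for Cx3cr1 (0.990 to 0.989), Fcgr3, Serinc3 and Tprgl for Selplg (0.986 to 0.981), and Adipor1 and Nisch for Sparc (0.988 and 0.980). Tmem119 was matched best by Tmem173, Gna15 and Oma1 (0.953 to 0.948) and Olfml3 by Slc29a1, Ms4a6d and Oas1c (0.934 to 0.922). The closest genes to Fcrls, Adam1a, Rgs7bp and Gmpr, reached no more than 0.848, 0.743 and 0.742.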

How the data were processed

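Cells from 15 mice were captured with the 10x Genomics 3′ v3 kit, 1 library per mouse, and groups and batches came from the labels. The authors mapped reads to mm10 (Cell Ranger 4.0.0 in the submitters' processing notes; the study's methods give other versions) and filtered and clustered cells in Seurat; the cell filters are not given in the sources used here. The deposited matrix holds raw UMI counts per gene and cell, and the deposited cell table holds counts per cell, the percent of mitochondrial UMIs, the cluster and the mouse.

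Counts were summed per mouse and tested with limma-voom (limma 3.58.1, R 4.3.3; filterByExpr with a minimum count of 10, TMM) in 1 fit of the 5 groups, with Benjamini-Hochberg adjustment over 14260 genes at 0.05; fitted log2 fold changes carry the prior count of voom, so those of sparse genes are approximate. edgeR 4.0.16 and DESeq2 1.42.0 were alternatives, with other scalings, filters, cell sets, the batch as a block and each mouse left out. Steps were tested on simulated data. For limma-voom 200 genes were changed there, with shifts up and down, so that test cannot check the choice of scaling. Shares of cells were compared after thinning to 3385 UMIs, the 10th percentile, and 14 per-cell measures were tested by exact permutation within batches; p-values there are unadjusted. No doublet caller was run.

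The members and lists were chosen with earlier results of these data known. The members are named in every comparison; from each list of related genes, up to 3 called genes with the largest absolute day 1 change, and for each member the 3 genes of highest correlation; Siglecf, Cd22, Lgmn, Cd5l and those called at day 7 were named after their values were seen. Batch numbers pair the mice because the labels say that each batch held every group; the mean r of deviations was 0.036 for mice of 1 batch and -0.018 for mice of different batches. Counts of replicates differed by more than sampling noise (chi-square per degree of freedom 10.6 to 28.7). Some items of these lists are not reported here. No column was left unused for want of a sample. RefSeq promoters were read from a supplied table; 31506 of 32372 symbols matched GENCODE M21.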

Additional observations from a re-analysis of the deposited data

Results flagged for a closer look

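For 6 of the 7 genes the difference from ATV:RSV at day 7 was not the difference at day 1, by the direct limma-voom test of day 7 against day 1, in which the shared controls cancel. That test called 66.9% of all genes, so the count says little about these genes in particular. The change between the days was 0.187 for Tmem119, 0.468 for Cx3cr1, 0.737 for Siglech, 0.661 for Selplg, -0.320 for Olfml3 and 0.402 for Sparc on the log2 scale. Each had the same sign in 3 of 3 batches, although for Tmem119 the batch 3 pair differed by only 0.0027. With counts scaled by the number of cells the sign turned for Tmem119 and Sparc, Cx3cr1 (0.0047) and Selplg (0.20) were no longer called, and Siglech (0.27) and Olfml3 (-0.79) were. With library size scaling Olfml3 (-0.17) was not called. No test for single outlying mice was run within the groups of 3.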

How the results depend on the processing

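The day 1 calls of Siglech, Selplg and Cx3cr1 held under all 25 alternatives, and leaving out any 1 mouse changed no day 1 call of the 7 genes. Scaling by the number of cells left 4 of the 7 genes called at day 1, 0 at day 7 and 4 by the F test. Over all genes tested it called 8945 at day 1, 308 at day 7 and 9008 by the F test. The day 1 log2 fold changes were then 0.063 (Tmem119), 0.020 (Sparc) and 0.15 (Fcrls). This alternative differs from the main scaling in counting the larger UMI total of day 1 cells. It also turned the sign at day 7 for Selplg (-0.083), Olfml3 (-0.041) and Sparc (-0.042), at day 14 for Cx3cr1 (0.00057) and Olfml3 (0.0035), at day 28 for Tmem119 (0.061), Siglech (0.066) and Sparc (0.049), and between days 7 and 1 for Tmem119 (-0.28) and Sparc (-0.063). Library size alone turned day 7 Selplg (-0.075), Olfml3 (-0.031) and Sparc (-0.034), day 14 Sparc (-0.033), day 28 Cx3cr1 (-0.018) and Selplg (-0.011), and day 7 against day 1 for Fcrls (0.11). Differences near 0 also turned with DESeq2 (Olfml3 at day 14, 0.00028; Cx3cr1 at day 28, -0.00025), RLE scaling (Olfml3 at day 14, 0.0019), a fit of the 2 groups compared (Cx3cr1 at day 28, -0.0032) and without proliferating cells (Cx3cr1 at day 28, -0.0013). Of the 7 genes DESeq2 called 1 at day 14, Fcrls, where it called 132 of the 14260 genes tested. Leaving out each mouse gave 1 to 2 calls among the 7 genes at day 7. It also gave ranges across 0 at day 7 for Selplg (-0.036 to 0.060) and Olfml3 (-0.0085 to 0.13). At day 14 they were, for Tmem119 -0.093 to 0.014, Cx3cr1 -0.053 to 0.036, Selplg -0.064 to 0.059, Olfml3 -0.074 to 0.061 and Sparc -0.016 to 0.046. At day 28 they were, for Tmem119 -0.032 to 0.028, Cx3cr1 -0.047 to 0.042, Siglech -0.028 to 0.038, Selplg -0.048 to 0.047 and Sparc -0.060 to 0.0012. None of these turned values was called in either setting, except Tmem119 between days 7 and 1, and, for the main scaling, the day 1 values of Tmem119, Sparc and Fcrls and the day 7 against day 1 value of Sparc. The F test lost Tmem119 without the day 1 mouse of batch 2 (adjusted p = 0.0683) and Fcrls without the control of batch 1 (0.0709) or 3 (0.0545). The Tmem119 change between days 7 and 1 was also not called with no filter on low counts or without proliferating cells.

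The day 1 difference in the share of cells with a UMI moved with depth. In percentage points it was -0.854 (Tmem119), -0.528 (Cx3cr1), -4.46 (Siglech), -0.946 (Selplg), -0.276 (Sparc) and -0.145 (Fcrls) without thinning, and -12.6, -11.5, -28.2, -19.3, -10.0 and -9.67 in that order, with Olfml3 at 4.14, at 1000 UMIs per cell. With the batch as a replicate block the number of the 7 genes called was 7 at day 1, 2 at day 7, 0 at days 14 and 28, 6 between days 7 and 1 and 7 by the F test, so the block changed no call of the 7 genes. Over all genes tested, that fit called 10282 at day 1, 1014 at day 7, 122 at day 14 and 2 at day 28. Each gene had at least 26565 UMIs in every mouse.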
